A study of Homo sapiens with 6 samples.

Results

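Transcripts of the human mitochondrial genome are described here. They were all rows of the deposited ORC1 RIP table whose gene symbol starts with MT-, which gave 31 of 23013 genes. These comprised 2 rRNAs, 13 mRNAs and 16 of the 22 tRNAs of the mitochondrial genome, and the 6 other tRNAs were not analysed here. All 31 identifiers matched GENCODE v44, where 26 genes lie on the plus strand and 5 on the minus strand of chromosome M (GRCh38).

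The mitochondrial genome is a small circular DNA that is transcribed inside mitochondria, on both strands, into long precursor RNAs. These precursors are cut mainly at the tRNAs that lie between the other genes, which frees 12S and 16S rRNA (MT-RNR1 and MT-RNR2) for the mitochondrial ribosome and mRNAs for subunits of the respiratory chain complexes I, III and IV and of the ATP synthase (complex V). Transcripts of this genome are made outside the nucleus, and their levels in a nuclear RNA preparation and in RNA recovered with a nuclear protein can be followed next to those of nuclear genes.

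In native RIP-seq a protein is recovered by an antibody without crosslinking, and RNA bound to it or recovered along with it is sequenced. The target was ORC1, which belongs to the origin recognition complex of DNA replication, and the material was nuclei of HCT116, a line of human colorectal cancer cells, grown untreated and asynchronously. The groups were 3 inputs of nuclear lysate, to which no antibody was added, and 3 ORC1 IPs, recovered with an ORC1 antibody from the same kind of lysate. Each input and ORC1 IP carries the number of its RIP replicate. RNA of untreated cells of 1 line limits what the groups stand for. No library of a control antibody was analysed here, so a recovery that does not depend on ORC1 could not be measured. The paper reports that RNA recovered with its control IgG was below detection. Fewer mitochondria in a lysate and less RNA per mitochondrion cannot be told apart in bulk libraries.

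Depth was 13703033 to 17248924 gene reads in inputs and 25134156 to 36008733 in the ORC1 IPs. Of the 10 colorectal epithelial markers examined, 7 had a row. EPCAM, KRT8, KRT18, KRT19, CDH1 and CDX2 had at least 192 normalised counts in every library, VIL1 had 0 to 6.30, and CDX1, LGALS4 and CEACAM5 were not analysed here. Of 10 markers of other cell types, 3 had a row. COL1A1, a collagen gene, had 161 to 787 normalised counts, overlapping the 192 to 371 of CDX2, and ALB and GFAP had at most 6.97. ORC1 IP 2 stood apart from the other libraries. It held the highest value of the 6 libraries for 23.9% of all genes. Its summed epithelial markers were the lowest of the 6 (16799 against 47785 to 145253 normalised counts), a sum made mostly of KRT8, KRT18 and KRT19. These keratins, EPCAM and CDH1 were each lowest in ORC1 IP 2, whereas CDX2 was lowest in ORC1 IP 3 (192 against 225 in ORC1 IP 2) and VIL1 in ORC1 IP 1. MALAT1, a nuclear long noncoding RNA, had 116695 normalised counts in ORC1 IP 2 against 10644 to 35633 elsewhere. Of 3 other nuclear long noncoding RNAs, TUG1 (5716 against 845 to 2330) and NEAT1 (4229 against 1462 to 3838) were also highest there, and KCNQ1OT1 was not (194 against 139 to 414). The part of these markers and RNAs in the results was not tested. Fold changes of the tested transcripts, counts of calls and some of the shares and ratios are given with and without ORC1 IP 2.

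Among the tRNAs, 3 encoded on the minus strand carried most of the reads, and their sequences are shown because their values set them apart from the other tRNAs below. MT-TY, MT-TC and MT-TP read tyrosine, cysteine and proline codons. MT-TL1, which reads leucine codons, lies on the plus strand between MT-RNR2 and MT-ND1 and is shown for comparison. Sequences were taken from GENCODE v44 transcripts (GRCh38), run 5′ to 3′ in the sense of the tRNA, and have the anticodon in capitals:
MT-TY (chrM:5826-5891, minus strand): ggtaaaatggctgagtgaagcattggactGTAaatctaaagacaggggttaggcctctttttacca
MT-TC (chrM:5761-5826, minus strand): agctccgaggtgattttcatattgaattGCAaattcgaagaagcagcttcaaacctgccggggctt
MT-TP (chrM:15956-16023, minus strand): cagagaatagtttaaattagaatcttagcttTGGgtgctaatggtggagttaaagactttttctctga
MT-TL1 (chrM:3230-3304, plus strand): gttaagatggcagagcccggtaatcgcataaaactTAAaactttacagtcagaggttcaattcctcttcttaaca

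Genes of this genome abut or overlap. MT-ATP8 and MT-ATP6, subunits of the ATP synthase, share 46 bases that are read in 2 frames (chrM:8527-8572, plus strand), shown with the start codon of MT-ATP6 in capitals because reads inside them cannot be assigned to either gene:
MT-ATP8/MT-ATP6 overlap: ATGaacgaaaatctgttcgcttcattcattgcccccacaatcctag
MT-ND4L and MT-ND4 share 7 bases (atgctaa), and MT-TC and MT-TY share the base at position 5826. Whether the authors counted reads that touch several genes, and whether counting used the strand, was not given in the sources used here. Values of tRNAs, of overlapping genes and of genes with a partner on the opposite strand are uncertain for that reason.

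The first question was how much of each library came from the mitochondrial genome. Mitochondrial reads made up 3.28, 1.49 and 2.65% of gene reads in inputs 1, 2 and 3, and 0.617, 6.0 and 0.257% in the ORC1 IPs 1, 2 and 3. ORC1 IP 2 was above each input and ORC1 IPs 1 and 3 were below each input, so the groups overlapped. Their means were 2.47% ± 0.905 and 2.29% ± 3.21 (SD, n = 3; exact two-sided permutation test, p = 1, where 0.1 is the lowest p this design can give). With that library left out, the difference of ORC1 IPs from inputs was -2.04 percentage points (exact permutation test, p = 0.2, smallest possible 0.1).

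The classes did not move by the same amount. The mRNAs held 0.408, 0.242 and 0.241% of gene reads in the inputs and 0.147, 2.01 and 0.0685% in the ORC1 IPs. In ORC1 IP 2 the mRNA share was thus above the highest input by a wider margin than the rRNA share, which was 3.98% there against 1.25 to 2.86% in inputs. The tRNAs held 0.00404 to 0.00635% in inputs, and 0.000950, 0.0114 and 0.00101% in the ORC1 IPs. In the plot of class shares, ORC1 IP 2 is the highest library in each class and ORC1 IPs 1 and 3 are the lowest. Shares of gene reads, mitochondrial reads and mRNA reads had 95% Wilson intervals of at most 0.624 percentage points on either side, which cover counting error only.

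**Figure D1:**
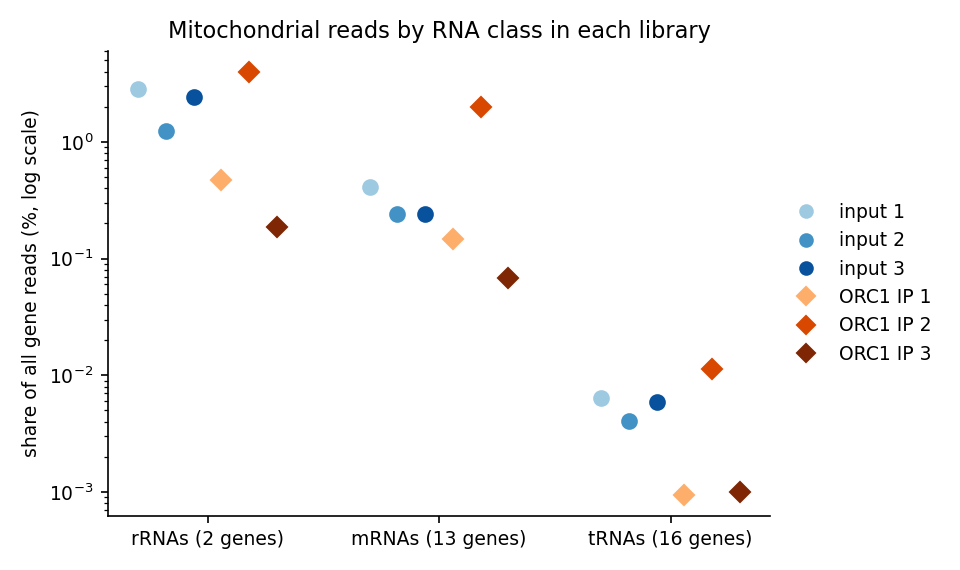
Share of all gene reads (%, log scale) in mitochondrial rRNAs, mRNAs and tRNAs, with 1 point per library (circles, inputs; diamonds, ORC1 IPs). ORC1 IP 2 lies above the inputs in each class, at 3.98% for rRNAs and 2.01% for mRNAs, and ORC1 IPs 1 and 3 lie below them.

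The composition of mitochondrial reads, which does not depend on scaling between libraries, was compared next. The rRNAs held 87.4, 83.5 and 90.7% of mitochondrial reads in the inputs and 76.0, 66.4 and 73.0% in the ORC1 IPs. Every ORC1 IP was below every input, ORC1 IP 2 included. The means were 87.2% ± 3.59 and 71.8% ± 4.92 (SD, n = 3), a difference of -15.4 percentage points at the lowest p this design can give (exact two-sided permutation test, p = 0.1; 0.225 after adjustment over 9 measures, of which 5 were chosen after the values had been seen). When ORC1 IP 2 was left out the difference was -12.7 percentage points (exact permutation test, p = 0.1, smallest possible 0.1). The mRNA share was the complement, at 12.6% ± 3.57 for inputs and 28.0% ± 4.93 for ORC1 IPs (SD, n = 3).

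Each rRNA was then set against the mRNAs. There were 5.36, 3.47 and 7.68 reads of MT-RNR2, the 16S rRNA of the large ribosomal subunit, for each read of the 13 mRNAs in inputs, and 1.30, 1.5 and 1.48 in the ORC1 IPs. The ORC1 IPs sat close together and below each input. On the log2 scale the ratio was 2.39 ± 0.57 for inputs and 0.51 ± 0.11 for ORC1 IPs (SD, n = 3), so the ratio in the ORC1 IPs was 0.273 times that in inputs (exact permutation test, p = 0.1, the smallest possible; 0.225 adjusted over 9 measures). For MT-RNR1, the 12S rRNA of the small subunit, the ratio was 1.66, 1.68 and 2.31 in inputs and 1.88, 0.484 and 1.26 in the ORC1 IPs, and the groups overlapped (exact permutation test, p = 0.3). Reads of MT-RNR2 outnumbered those of MT-RNR1 by 3.23, 2.06 and 3.33 to 1 in inputs and by 3.10 to 1 in ORC1 IP 2, whereas the ratio was 0.692 in ORC1 IP 1 and 1.17 in ORC1 IP 3. The groups overlapped in this ratio, and a difference between both rRNAs was not shown with all libraries (exact permutation test, p = 0.2; 0.36 adjusted over 9 measures). Without ORC1 IP 2 the groups did not overlap, with a difference of -1.64 on the log2 scale (exact permutation test, p = 0.1, smallest possible 0.1). All values of the rRNAs, and all shares and ratios that include them, were measured after ribosomal depletion during library preparation. Whether its probes cover mitochondrial rRNA was not given in the sources used here.

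**Figure D2:**
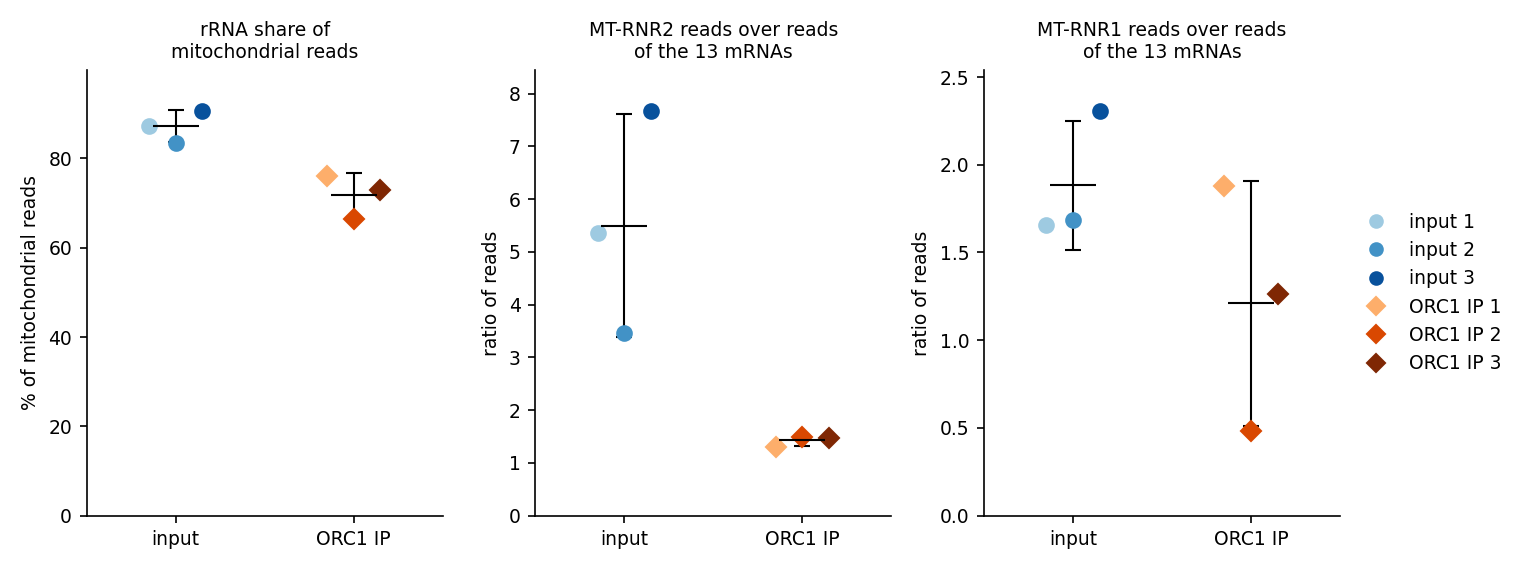
Left, rRNA share of mitochondrial reads (%); middle and right, reads of MT-RNR2 and of MT-RNR1 divided by reads of the 13 mRNAs. Points are libraries and bars the mean ± SD (n = 3). ORC1 IPs lie under all inputs for the rRNA share (66.4 to 76.0% against 83.5 to 90.7%) and for MT-RNR2 (1.30 to 1.5 against 3.47 to 7.68), and overlap with them for MT-RNR1.

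Levels of single transcripts were then tested across all genes. Of the 31 transcripts, 22 averaged 10 or more normalised counts and were tested: 2 rRNAs, 13 mRNAs and 7 tRNAs. MT-TL1 and MT-TM passed this minimum only through ORC1 IP 2. With all 6 libraries, limma called 0 of 22 higher and 0 of 22 lower (Benjamini-Hochberg adjustment over 16513 genes, threshold 0.05). Among all tested genes 2.28% were called higher and 1.42% lower, or 3.69% in either direction. At an unadjusted p under 0.05 there were 2 of 22 (MT-TC and MT-TP), or 9.09%, below the 21.6% of all tested genes. On recovered reads edgeR and DESeq2 also called 0 of 22, where they called 3.88% and 12% of all tested genes. DESeq2 gave no adjusted p for MT-ND4L, so its count does not cover all 22. The median log2 fold change of ORC1 IP over input was -0.15 over the 22 transcripts and 0.01 over all tested genes. This median was 1.05 in edgeR and 1.01 in DESeq2.

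The spread between ORC1 IPs went in 1 direction for nearly all of these RNAs. ORC1 IP 2 held the highest of the 6 values for 28 of the 31 transcripts, against a share of 23.9% among all genes. The 3 exceptions were the tRNAs MT-TC, MT-TP and MT-TW. ORC1 IP 3 held the lowest value for 19 of the 31, against 16.7% of all genes. Fold changes with all libraries thus averaged values on both sides of the inputs, with standard errors of 0.52 to 1.93 on the log2 scale.

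Once ORC1 IP 2 was left out, 10 of the 22 tested transcripts were called lower and 0 higher (limma, adjusted p under 0.05), where 6.38% of all tested genes were called lower and 11.9% higher (18.3% in either direction). These were MT-RNR2, the mRNAs MT-ND3, MT-ND4, MT-ND4L, MT-CO2, MT-ATP6 and MT-ATP8, and the tRNAs MT-TY, MT-TC and MT-TP. The median log2 fold change over all 22 was -1.31, against 0.02 for all tested genes. In edgeR without that library 9 of 22 were called lower, against 7.12% of all genes. In ORC1 IPs 1 and 3, 17 of the 31 transcripts were under all 3 inputs, against 20.9% of all genes. Among the 17 were MT-TW and MT-TT, which had few reads and were not tested, and MT-TM, which passed the minimum only through ORC1 IP 2. The library left out held the highest value for most of these transcripts, so leaving it out lowers their fold changes whatever the others show. Transcripts cut from shared precursors are also not independent, so these counts are not replicates of a difference between the groups.

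**Figure D3:**
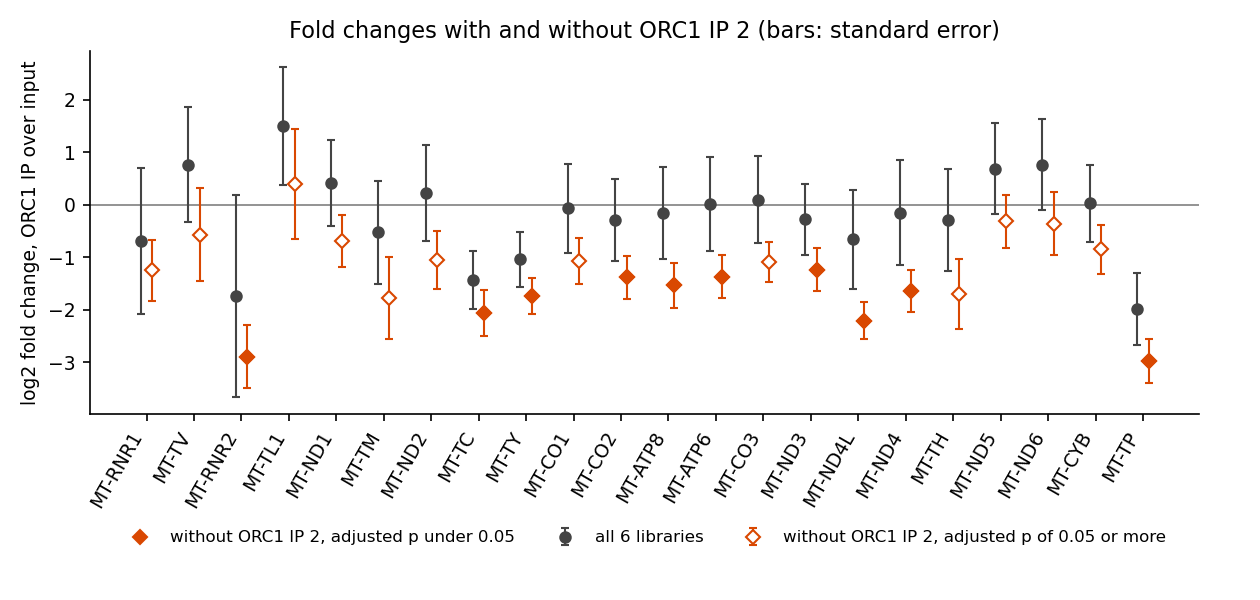
Log2 fold change of ORC1 IP over input with its standard error (limma) for the 22 tested transcripts, in gene order, with all 6 libraries (grey circles) and without ORC1 IP 2 (orange diamonds, filled where the adjusted p was under 0.05). With all libraries the values lie around 0 with wide errors and 0 were called, and without ORC1 IP 2 they lie lower and 10 were called.

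MT-RNR2 (ENSG00000210082, chrM:1671-3229, plus strand) had 397973, 181340 and 355309 normalised counts in inputs and 57906, 438912 and 27134 in the ORC1 IPs 1, 2 and 3. ORC1 IPs 1 and 3 were under each input and ORC1 IP 2 was above them. Its log2 fold change was -1.74 ± 1.93 (SE; limma adjusted p = 0.651), and -2.90 ± 0.60 without ORC1 IP 2 (limma adjusted p = 0.00540). MT-RNR1 (ENSG00000211459, chrM:648-1601, plus strand) had 123176, 88024 and 106817 in inputs and 83623, 141683 and 23205 in the ORC1 IPs. Here ORC1 IP 1 was only just under the lowest input. The log2 fold change was -0.69 ± 1.39 (SE; limma adjusted p = 0.819), and -1.25 ± 0.58 without ORC1 IP 2 (limma adjusted p = 0.152).

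The 7 mRNAs for complex I, the NADH dehydrogenase that feeds electrons into the chain, covered the whole range of log2 fold changes among mRNAs, which was -0.66 to 0.77. MT-ND4L (ENSG00000212907, chrM:10470-10766, plus strand) had 2083, 1765 and 1184 normalised counts in inputs and 329, 8837 and 377 in the ORC1 IPs. Its log2 fold change was -0.66 ± 0.95 (SE; limma adjusted p = 0.737). Without ORC1 IP 2 it was -2.21 ± 0.35 (limma adjusted p = 0.0013), the most negative of the 13 mRNAs. MT-ND4 (chrM:10760-12137), its overlapping neighbour on the plus strand, had 13295, 7599 and 5515 in inputs and 2813, 58603 and 2481 in the ORC1 IPs. MT-ND3 (chrM:10059-10404), another membrane subunit, had 1839, 875 and 702 against 378, 3263 and 515. For these 3 mRNAs ORC1 IPs 1 and 3 were both under all inputs.

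The remaining mRNAs of complex I behaved otherwise in ORC1 IP 1. MT-ND5 (chrM:12337-14148) had 16024, 6422 and 6845 normalised counts in inputs and 11881, 57554 and 4283 in the ORC1 IPs. MT-ND6 (ENSG00000198695, chrM:14149-14673), the sole mRNA on the minus strand, had 1086, 479 and 433 in inputs and 1187, 4916 and 189 in the ORC1 IPs. For both, ORC1 IP 1 was within or above the inputs and ORC1 IP 3 was below them. The log2 fold change of MT-ND6 was 0.77 ± 0.86 (SE; limma adjusted p = 0.657), and -0.36 ± 0.61 without ORC1 IP 2 (limma adjusted p = 0.726). MT-ND1 and MT-ND2, the first mRNAs of the plus strand, had ORC1 IP 1 within the inputs (3659 against 2165 to 3922 for MT-ND1, and 1557 against 1018 to 2277 for MT-ND2). In both, ORC1 IP 2 was above the inputs (18150 and 9720) and ORC1 IP 3 below them (881 and 299).

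The mRNAs of complex IV, the cytochrome c oxidase that passes electrons to oxygen, were MT-CO1, MT-CO2 and MT-CO3. MT-CO1 (chrM:5904-7445), the catalytic subunit, had 11129, 13024 and 13293 normalised counts in inputs and 9781, 47418 and 3591 in the ORC1 IPs. MT-CO2 (chrM:7586-8269) had 4107, 5262 and 3796 against 2705, 16009 and 1030. MT-CO3 (chrM:9207-9990) had 8803, 5614 and 4702 against 3322, 34126 and 2503. All 3 had ORC1 IPs 1 and 3 under the inputs, but only MT-CO2 was called without ORC1 IP 2 (log2 fold change -1.38 ± 0.41, SE; limma adjusted p = 0.0310), whereas MT-CO3 (0.0570) and MT-CO1 (0.103) were not.

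MT-CYB (chrM:14747-15887), cytochrome b of complex III, had 6275, 4887 and 5226 normalised counts in inputs and 5722, 18734 and 1581 in the ORC1 IPs, so that ORC1 IP 1 was within the inputs. Of the ATP synthase mRNAs, MT-ATP6 had 2948, 1948 and 1183 in inputs and 959, 13282 and 557 in the ORC1 IPs, and MT-ATP8 had 506, 298 and 225 against 149, 1971 and 82.7. Without ORC1 IP 2 their log2 fold changes were -1.37 ± 0.41 and -1.54 ± 0.43 (SE; limma adjusted p = 0.0315 and 0.0240). Their shared bases and adjacent reading frames mean that these values are not independent.

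Per kb of gene length, mRNA levels within a library differed by 4.67 to 11.1 times between the highest and the lowest mRNA. The highest was MT-CO3 in input 1 and in the ORC1 IPs 2 and 3, MT-CO1 in inputs 2 and 3, and MT-ND5 in ORC1 IP 1. The lowest was MT-ND6 in the 3 inputs (825 to 2068 normalised counts per kb). In ORC1 IPs it was MT-ATP8 in replicate 1 and MT-ND2 in replicates 2 and 3. In means over inputs, MT-CO3 (8128 normalised counts per kb) and MT-CO1 (8094) led, followed by MT-CO2 (6416), MT-ND4 (6388), MT-ND4L (5648) and MT-ND5 (5388). Libraries of a group spread more widely than neighbours in this order, as MT-CO3 alone ranged from 5997 to 11228 per kb among inputs.

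The rRNAs stood above the mRNAs in each library. Per kb, MT-RNR2 was 32.8 to 60.3 times the median mRNA in inputs, and 16.4, 14.4 and 12.6 times in the ORC1 IPs 1, 2 and 3. MT-RNR1 was 23.5 to 29.6 times the median mRNA in inputs and 38.8, 7.61 and 17.6 times in the ORC1 IPs. Per kb, MT-RNR1 was above MT-RNR2 in the ORC1 IPs 1 and 3 and below it in the other 4 libraries.

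**Figure D4:**
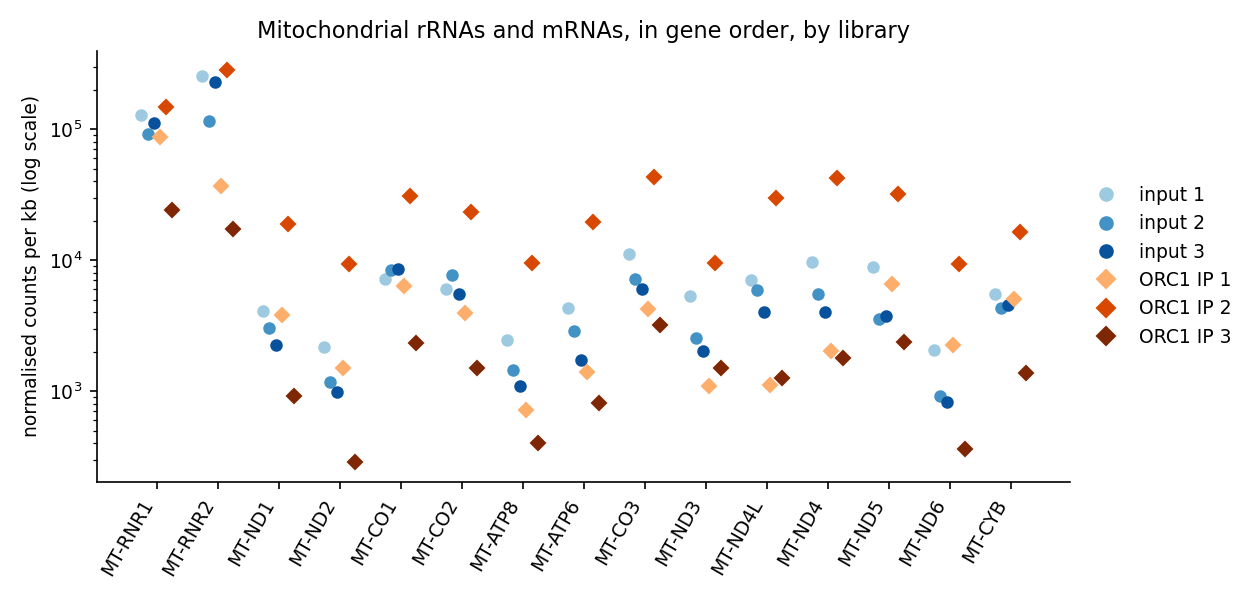
Normalised counts per kb of gene length (log scale) for the 2 rRNAs and 13 mRNAs in their order on the mitochondrial genome, with 1 point per library (circles, inputs; diamonds, ORC1 IPs). ORC1 IP 2 is the highest library for each of the 15 genes, and ORC1 IP 3 is the lowest except for MT-ND3 and MT-ND4L, where ORC1 IP 1 is.

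None of the 13 mRNAs had a share of mRNA reads that separated the 3 ORC1 IPs from the 3 inputs. Complex I held 54.5, 40.7 and 38.6% of mRNA reads in inputs and 49.1, 55.0 and 49.1% in the ORC1 IPs, and complex IV held 32.4, 45.7 and 47.1% against 35.6, 33.3 and 38.8%. In ORC1 IP 1 MT-ND4 was at 6.33% against 11.9 to 20.03% in the other 5 libraries, and MT-ND4L at 0.741% against 2.05 to 3.37%. MT-ND5 took 26.7% there, against 12.3 to 23.3% in the others.

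The tRNAs, which carry amino acids to the mitochondrial ribosome, had few reads. The 16 tRNAs together had 554 to 1096 reads in inputs and 249, 2853 and 363 in the ORC1 IPs, or 0.194 to 0.271% and 0.154, 0.189 and 0.392% of mitochondrial reads. This share did not separate the groups (0.229% ± 0.0389 and 0.245% ± 0.129, SD, n = 3; exact permutation test, p = 1). MT-TY, MT-TC and MT-TP made up 86.8, 94.8 and 94.6% of tRNA reads in inputs and 81.1, 67.6 and 91.2% in the ORC1 IPs 1, 2 and 3, with Wilson intervals of at most 4.85 percentage points on either side.

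MT-TY (ENSG00000210144), the tyrosine tRNA, had 683, 495 and 678 normalised counts in inputs and 165, 787 and 202 in the ORC1 IPs. MT-TC (ENSG00000210140), the cysteine tRNA, had 103, 115 and 124 against 31.1, 103 and 22.4. MT-TP (ENSG00000210196), the proline tRNA, had 217, 217 and 269 against 36.8, 230 and 22.4. In ORC1 IPs 1 and 3 all 3 were well under the inputs, and in ORC1 IP 2 they stayed near the inputs. MT-TC was the 1 transcript of the 31 whose ORC1 IPs were all under the inputs, by less than 1 normalised count in ORC1 IP 2, where 12.2% of all genes had such a pattern. None of the 31 had all ORC1 IPs above the inputs, as 11.4% of all genes did.

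With all libraries the log2 fold changes of MT-TY, MT-TC and MT-TP were -1.04 ± 0.52, -1.43 ± 0.55 and -1.99 ± 0.68 (SE), and none passed (limma adjusted p = 0.269, 0.154 and 0.115). Without ORC1 IP 2 they were -1.74 ± 0.34, -2.07 ± 0.43 and -2.98 ± 0.41, and each was called (limma adjusted p = 0.00409, 0.00566 and 0.000806). Set against the mRNAs, for which ORC1 IP 2 was far above the inputs, these 3 tRNAs had 13.5, 15.8 and 23.1 reads per 1000 mRNA reads in inputs and 5.23, 3.83 and 13.4 in the ORC1 IPs. The ORC1 IPs were under each input, ORC1 IP 3 by a small margin. This ratio was chosen after the values had been seen and was not tested.

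The tRNAs on the plus strand, counted in the same way, did not separate the groups. They had 2.00, 0.813 and 1.29 reads per 1000 mRNA reads in inputs and 1.01, 1.77 and 1.26 in the ORC1 IPs, which overlapped. MT-TV, the valine tRNA between both rRNAs, had 49.6, 6.30 and 10.5 normalised counts in inputs and 24.2, 174 and 3.73 in the ORC1 IPs. MT-TH, the histidine tRNA, had 16.9, 12.6 and 14.0 against 4.61, 89.4 and 2.98. MT-TM, the methionine tRNA, had 23.2, 4.73 and 12.9 against 2.30, 48.2 and 2.98. ORC1 IP 2 was above every other library for all 3, by the smallest margin for MT-TM, which passed the minimum only through this library. For MT-TY, MT-TC and MT-TP it was near the inputs.

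MT-TL1 rested on 16, 0 and 7 reads in inputs and 5, 122 and 9 in the ORC1 IPs. Its 0 reads in input 2 allow up to 3 reads, or 4.73 normalised counts, and its groups overlapped. The 9 tRNAs below the minimum (MT-TF, MT-TI, MT-TW, MT-TD, MT-TG, MT-TR, MT-TL2, MT-TE and MT-TT) had 13 to 44 reads together in inputs and 15, 266 and 10 in the ORC1 IPs 1, 2 and 3. MT-TE, the glutamate tRNA and the remaining one on the minus strand, had 4, 2 and 1 reads in inputs and 8, 33 and 1 in the ORC1 IPs. Differences in single tRNAs of this set were not detectable at this depth.

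**Figure D5:**
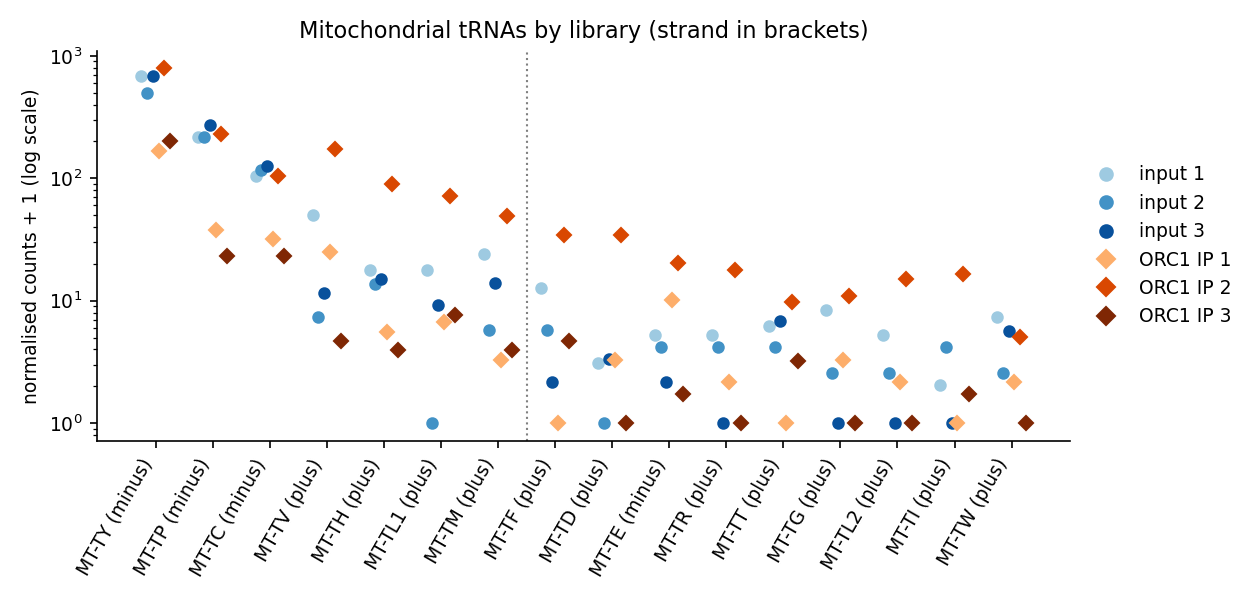
Normalised counts + 1 (log scale) of the 16 tRNAs, ordered by mean, with the strand in brackets and 1 point per library (circles, inputs; diamonds, ORC1 IPs). The dotted line separates 7 tested tRNAs from 9 with a mean under 10. ORC1 IP 2 lies near the inputs for MT-TY, MT-TP and MT-TC, and above them for MT-TV, MT-TH, MT-TL1 and MT-TM. MT-TL1 and MT-TM passed the minimum only through this library.

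Genes of the minus strand, MT-ND6 and 4 tRNAs, held 0.351, 0.406 and 0.295% of mitochondrial reads in inputs and 0.767, 0.692 and 0.633% in the ORC1 IPs. Every ORC1 IP was above every input (0.351% ± 0.0554 and 0.697% ± 0.0672, SD, n = 3; exact permutation test, p = 0.1, the smallest possible; 0.225 adjusted over 9 measures). This depended on the rRNAs in the denominator. Without them, an alternative chosen after seeing the data, the share was 2.77, 2.46 and 3.17% in inputs and 3.19, 2.06 and 2.34% in the ORC1 IPs, and the groups overlapped (exact permutation test, p = 0.6). The share also pools unlike genes. MT-ND6 held 1029 of 1984, 304 of 831 and 370 of 1286 minus-strand reads in inputs. In the ORC1 IPs it held 1031 of 1241, 8467 of 10429 and 254 of 586. MT-TY, MT-TC and MT-TP had fewer reads per mRNA read in the ORC1 IPs, as given above.

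Nuclear copies of mitochondrial genes can share reads with the originals. Of 16 rows with symbols of such copies, 6 were tested and 0 were called (limma, adjusted p under 0.05; 0 at an unadjusted p under 0.05, and 0 in edgeR and DESeq2). Among all tested genes these shares were 3.69%, 21.6%, 3.88% and 12%. MTATP6P1 (chromosome 1, 633696 to 634376, plus strand, GRCh38), a copy of MT-ATP6, shared 46.7% of its 50-base stretches with mitochondrial genes. It had 362, 177 and 158 normalised counts in inputs and 113, 1422 and 66.3 in the ORC1 IPs, the same order of libraries as MT-ATP6. MTND2P28 (chromosome 1, 629640 to 630683, plus strand), which shared 43.5% of its stretches, had 51.7, 55.2 and 19.9 against 42.6, 248 and 6.71. The other rows that matched GENCODE v44, none of them tested, shared 0 to 4.76% of their stretches. The identifiers of the MTRNR2L rows, nuclear genes similar to MT-RNR2, had no match in GENCODE v44. MTRNR2L1 had 949, 484 and 974 in inputs and 189, 1469 and 46.2 in the ORC1 IPs. MTRNR2L12 had 112, 56.7 and 98.3 against 21.9, 124 and 11.9, and MTRNR2L8 had 4.22, 22.1 and 10.5 against 6.91, 12.8 and 12.7. The first 4 of these 5 rows had their highest value in ORC1 IP 2 and their lowest in ORC1 IP 3.

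Nuclear genes whose proteins transcribe, process and modify mitochondrial RNA or maintain mitochondrial DNA were examined next. Of 54 such genes tested, 0 were called higher and 0 lower (limma, adjusted p under 0.05; 0 in edgeR). The 7 at an unadjusted p under 0.05 (13%) and the 3 called by DESeq2 (5.56%) were smaller shares than the 21.6% and 12% of all tested genes. The median log2 fold change of the 54 genes was 0.11 against 0.01 for all tested genes. Of 9 genes for transcription, including POLRMT (the mitochondrial RNA polymerase), 7 had a positive and 2 a negative fold change. Of 23 genes for processing and decay, 9 were positive and 14 negative, and of 13 for modification 7 and 6. Of 9 genes for mitochondrial DNA maintenance, 6 were positive and 3 negative.

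The largest of these fold changes were negative. HSD17B10, a subunit of mitochondrial RNase P, had 1419, 2537 and 2354 normalised counts in inputs and 991, 517 and 1187 in the ORC1 IPs (log2 fold change -1.27 ± 0.42, SE; limma adjusted p = 0.104). TFB2M, a transcription initiation factor, had 480, 692 and 443 against 177, 217 and 283 (-1.25 ± 0.36, SE; limma adjusted p = 0.0718). SSBP1, which binds single-stranded mitochondrial DNA, had 2025, 2072 and 2310 against 891, 835 and 1088 (-1.19 ± 0.34, SE; limma adjusted p = 0.0691). In all 3 the ORC1 IPs were under the inputs, ORC1 IP 2 included, as in 12.2% of all genes. They were named for the size of their fold changes in these data, which favours such a pattern. With ORC1 IP 2 left out, 3 of the 54 genes were called lower (TFB2M, SSBP1 and PDE12, which removes poly(A) tails) and 3 higher (LRPPRC, which stabilises mitochondrial mRNAs, DNA2 and PRIMPOL), beside 6.38% lower and 11.9% higher among all tested genes. LRPPRC had 9190, 12688 and 7588 normalised counts in inputs and 21453, 4892 and 40671 in the ORC1 IPs, with its lowest value in ORC1 IP 2.

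Genes outside the mitochondrial genome were ranked by how closely their log2 values over the 6 libraries followed the mean of the 13 mRNAs. Among 11389 genes that averaged 100 or more, the highest Pearson correlations were those of LSM12P1 (0.992), MTATP6P1 (0.992), ENSG00000179240 (0.987), SLC30A3 (0.985) and ZNF561 (0.980). All 5 had their highest value in ORC1 IP 2 and their lowest in ORC1 IP 3, and the points share these 6 libraries. Except for MTATP6P1 their range was narrower than that of the mRNAs, as the SD of the log2 values was 0.35 to 0.83 for the other 4, against 1.38 for the mRNA mean.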

How the data were processed

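RIP-seq libraries of nuclear RNA from HCT116 cells (3 inputs, 3 ORC1 IPs) were analysed from 1 deposited table of 23013 genes. According to the methods and the submitters' processing notes, the authors used Trimmomatic for trimming, STAR for alignment to hg19 (GRCh37), featureCounts for Ensembl gene counts and DESeq2 for normalisation. The deposited signal per library is the number of reads over that library's size factor. All values were whole multiples of the smallest one (tolerance 0.001; 100% of values), so reads were recovered. The authors' deposited mean signal, log2 fold changes with standard errors, Wald score and p-values with adjusted p-values were not used.

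Differences were tested on log2(normalised count + 1) for 16513 genes with a mean of at least 10 by limma 3.58.1 (intensity trend, no block, Benjamini-Hochberg, threshold 0.05). This scale understates changes of low genes. Shares were compared by two-sided exact permutation tests over libraries. Alternatives were pseudocounts of 0.5 and 5, other minima, total count and TMM scaling, scaling without MT- rows, edgeR 4.0.16 and DESeq2 1.42.0 on recovered reads, a replicate block and leaving out each library. Settings that combine another test or scaling with leaving out ORC1 IP 2 were added after seeing the data. The limma test was tested on simulated data.

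The members and lists were chosen with earlier results of these data known. All MT- transcripts could be named. Of the nuclear lists, called genes or, with fewer than 3, the 3 with the largest fold changes were named, and so were the 5 mitochondrial pseudogene rows with the highest mean and the 5 most correlated genes. Genes called without ORC1 IP 2, POLRMT and marker genes were named after their values were seen. Coordinates and lengths are those of GENCODE v44 (GRCh38), matched by identifier, as no hg19 annotation was used here. R 4.3.3 was used.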

Additional observations from a re-analysis of the deposited data

How the results depend on the processing

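With all 6 libraries 0 of the mitochondrial transcripts were called under each pseudocount, minimum, scaling, test and block, although DESeq2 gave no adjusted p for MT-ND4L. Leaving out 1 library in turn gave 0 to 10 calls of 22. The 10 came without ORC1 IP 2, where 18.3% of all tested genes were called in either direction. Without that library edgeR called 9, DESeq2 11, total count scaling 15 and TMM scaling 9 of 22, all lower, where 7.12%, 9.24%, 18.0% and 5.61% of all tested genes were called lower. Total count scaling without that library moved the median of all genes to -0.51. Nuclear genes for mitochondrial RNA gave 3 calls in DESeq2 with all libraries, 0 to 6 when 1 library was left out, and, without ORC1 IP 2, 6 in edgeR, 12 in DESeq2, 9 with total count scaling and 7 with TMM scaling, of 54. The 6 in limma came without ORC1 IP 2, beside 18.3% of all tested genes. All-gene shares were 12% in DESeq2 with all libraries and 18.7%, 22.9%, 23.3% and 17.8% under the other 4 settings. Of the 6 tested rows of nuclear copies of mitochondrial genes, 0 to 2 were called when 1 library was left out. The 2 came without ORC1 IP 2 (33.3%, beside 18.3% of all tested genes). Under these 4 settings without ORC1 IP 2, 3, 3, 3 and 2 of the 6 were called, beside the same 4 all-gene shares.

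The median log2 fold change of the mitochondrial transcripts ranged from -1.31 to 0.69 when 1 library was left out. Total count scaling moved it from -0.15 to -0.37 and the median of all genes, 0.01 before, to -0.19. Among called genes 47.5% were then higher, against 61.6%. All-gene calls were 3018 without ORC1 IP 2, 87 without input 2, 29 without input 3, 315 without ORC1 IP 1 and 47 without ORC1 IP 3, against 610. The difference in mitochondrial share was -2.04 to 0.833 percentage points when 1 library was left out and changed sign to 0.442 without the rRNAs. That in tRNA share was -0.0572 to 0.0619. That in rRNA share was -17.5 to -12.7 and kept its sign. The minus-strand difference changed sign to -0.272 with rRNAs left out of the denominator.

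MT-RNR1 ranged from -1.25 to 0.052 (log2 fold change) when 1 library was left out, MT-ND6 from -0.36 to 1.99 and MT-ND4L from -2.21 to 0.16. MT-ND4L was 0.99 in edgeR and 0.95 in DESeq2, and MT-ND6 was -0.89 with total count scaling and -0.32 with TMM scaling, both without ORC1 IP 2. The cause was not tested.

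The replicate number of the labels was used as a block. Within each number, the input's and the ORC1 IP's departures from their means correlated at -0.322, -0.240 and 0.215 across genes, so the data did not show that the numbers pair the libraries. The block changed no call for mitochondrial transcripts (0 in limma and 0 in edgeR), and calls over all genes were 624 in limma and 610 in edgeR. Within replicate numbers the rRNA share differed by -15.4 and the mitochondrial share by -0.184 percentage points (exact sign-flip test, p = 0.25 and 1, smallest possible 0.25). Depth limits the tRNAs with under 10 normalised counts.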
